A study of Mus musculus with 24 samples.

Results

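Genes of lysosomal hydrolases and lysosomal membrane proteins were followed on 24 one-colour Affymetrix arrays of mouse intestinal organoids and intestine. A list of 38 gene symbols was looked up in the deposited table of log2 signals. A gene was measured where a probe set named it alone, and the probe set with the highest mean signal was taken where a gene had several. This gave 36 of the 38 genes, of 30712 genes measured in this way in all. Ctsd, the gene of cathepsin D, shares its probe set with Ifitm10, and Glb1, the gene of beta-galactosidase, shares its probe set with Tmppe, so both were left out. The 36 genes encode 8 proteases, 10 glycosidases, 5 sulfatases, 5 lipid hydrolases or their activators, 2 sterol transport proteins, 4 membrane proteins and 2 ion channels.

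The arrays formed 6 groups of 4. Fetal organoids came from mouse intestine of stage E19 and adult organoids from adult mouse intestine, and each was sampled on day 3 and on day 30 of culture. Organoids are three-dimensional cultures of intestinal epithelium, and both kinds were kept in ENR medium, which supplies EGF, Noggin and R-spondin. The other groups were uncultured intestine, taken from newborn (P0) or adult mice. No genetic change or drug is named for any group, and the strain, the intestinal segment and the age of the adults are not in the labels. Nothing in the labels ties the 4 arrays of a group to different animals or cultures, so p-values measure the spread between these samples, which may be technical.

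Array medians were 4.2 to 4.45 on the log2 scale. Negative control probe sets had medians of 3.84 to 4.61 and 95th percentiles of 7.27 to 8.06, so some control probe sets were as bright as many of the genes. Markers of intestinal epithelium averaged 10.18 to 10.63 on the 16 organoid arrays and 9.83 to 10.78 on the 8 tissue arrays. Of 13 macrophage markers, Adgre1 and Cd163 lay below the negative control median in fetal day 30 organoids and in both groups of adult organoids. Fcgr1 lay below it in both day 30 groups, and the other markers lay above it in these groups. Cd163 was below it in P0 and adult tissue too. The 13 markers averaged 5.17 to 5.33 in fetal day 30, 5.36 to 5.56 in adult day 3 and 5.23 to 5.32 in adult day 30 organoids. Replicates 1 to 3 of fetal day 3 organoids stood apart in a list of 8 stomach genes. These genes averaged 6.93, 8.65, 8.52 and 5.19 on replicates 1 to 4, against 4.12 to 4.33 in P0 tissue. Replicate 4 lay within the range of fetal day 30 organoids (4.38 to 6.04) and of adult day 3 organoids (4.80 to 5.23). Member counts that rest on the fetal day 3 arrays, and counts of other lists in fetal culture, are therefore also given without replicates 2 and 3 of that group. Mesenchyme and smooth muscle markers averaged 6.15 on adult day 3 replicate 1 and 5.14 to 5.15 on the other 3 arrays of its group.

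Lysosomes are acidic organelles in which hydrolases break down proteins, glycans, sulfated sugars and lipids that arrive by endocytosis or autophagy. In suckling rodents, enterocytes of the distal small intestine take up milk macromolecules by endocytosis and digest them in large lysosomal vacuoles, a capacity that is lost by weaning. Many lysosomal genes are known targets of the MiT/TFE transcription factors, such as TFEB, which bind promoter elements built around the letters CACGTG.

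These letters were looked for in RefSeq promoter windows of build GRCm38.p6, each running from 250 bases before to 50 bases after an annotated transcript start. A window was listed for 31 of the 36 genes. CACGTG, which reads the same on both strands, was found for 10 of 31 genes (32.3%), against 8.09% of all 27025 genes with a window. The longer TCACGTG, searched on both strands and holding CACGTG, was found for 9 genes (29.0%, against 4.29% of all genes). The full palindrome TCACGTGA was found for Ctsa, Gla and Mcoln1 (9.7%, against 1.12% of all genes). Over single windows of this length, the shares among all 32851 windows were 7.15%, 3.77% and 0.97%. The stretches below are shown because they hold several copies, hold the palindrome, or, for Lgmn, belong to the gene with TCACGTG that differed most between the tissues. Capitals mark the matched letters, and each stretch is written 5′ to 3′ along the gene's own strand.
Lamp1, chr8:13159075-13159160 (+ strand): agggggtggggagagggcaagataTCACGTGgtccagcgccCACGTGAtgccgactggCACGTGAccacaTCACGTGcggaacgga
Mcoln1, chr8:3500423-3500504 (+ strand): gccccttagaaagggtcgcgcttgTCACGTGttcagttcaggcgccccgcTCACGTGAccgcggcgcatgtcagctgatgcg
Gla, chrX:134601169-134601255 (- strand): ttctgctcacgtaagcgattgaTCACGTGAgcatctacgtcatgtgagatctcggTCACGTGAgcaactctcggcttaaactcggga
Ctsa, chr2:164833736-164833772 (+ strand): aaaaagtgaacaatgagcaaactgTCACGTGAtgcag
Lgmn, chr12:102439112-102439166 (- strand): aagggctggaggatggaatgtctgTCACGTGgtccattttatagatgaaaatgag
The 4 matches of Lamp1, the gene of a major lysosomal membrane glycoprotein, lie between 62 and 10 bases before the start. Those of Mcoln1, the gene of the mucolipin-1 cation channel, lie between 72 and 39 bases before it. Gla, which encodes alpha-galactosidase A, has its matches between 228 and 188 bases before the start, Ctsa between 13 and 6, and Lgmn between 50 and 44. For Ctsa and Lgmn the annotated start used lies inside the gene, downstream of its outermost 5′ end (position 164832872 and 102439728). Their matches therefore lie within the gene. A match describes the letters only, and no binding was measured here.

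**Figure D1:**
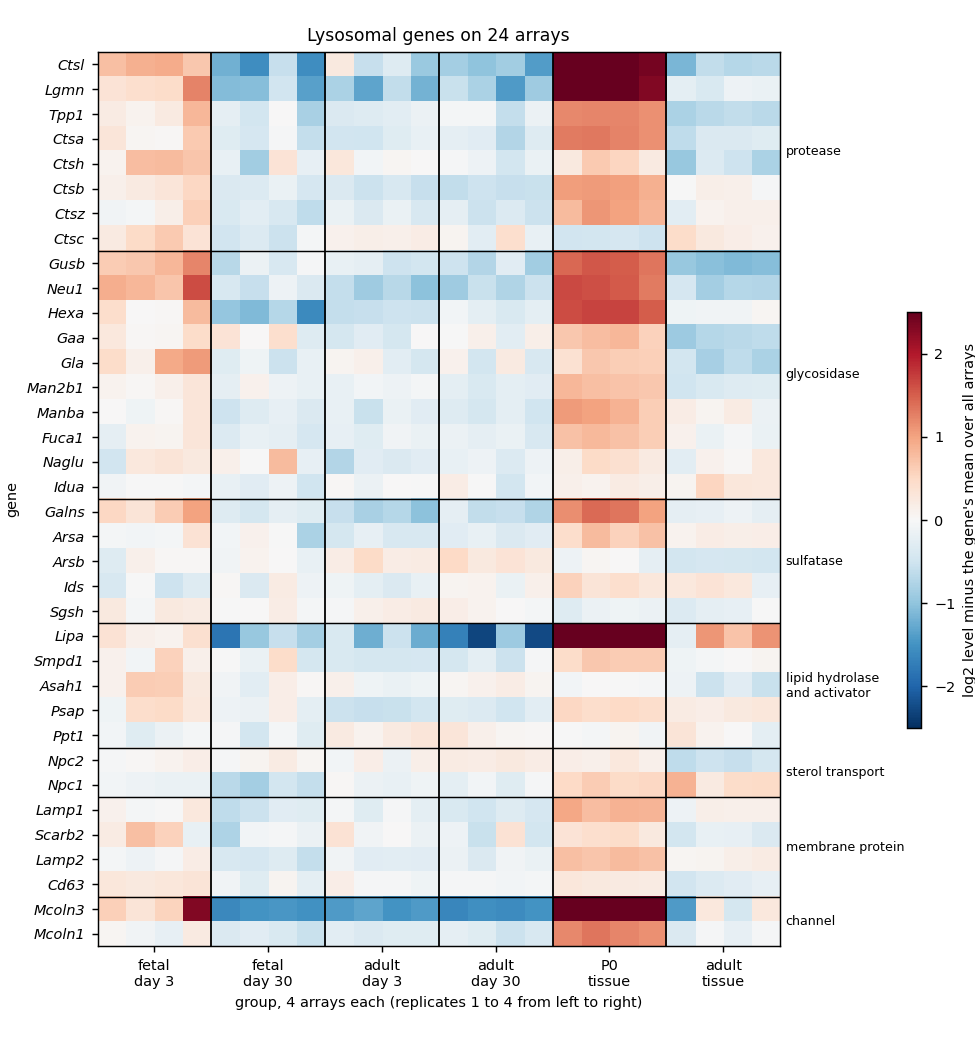
Signal of the 36 lysosomal genes on each of the 24 arrays, as the log2 level minus the gene's own mean over all arrays. Rows are genes grouped by role, columns are arrays in 6 groups of 4, and colours end at 2.5 in either direction. P0 tissue was the group with the highest mean for 26 of 36 genes and fetal day 3 organoids for 6.

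Differences below are log2 differences of group means (n = 4 each) ± SE, with the spread pooled over all 24 arrays, and adjusted p is limma's Benjamini-Hochberg value over the 30712 genes. A gene is said to have risen or fallen, or to have passed, where this value is under 0.05. Where a group's mean lies below the median of its negative controls, a fold is given as a lower bound against that median. Comparisons that use the same 4 fetal day 3 arrays, or the same P0 or adult tissue arrays, are not independent of one another.

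The comparison of adult with P0 intestine shows the change from the newborn to the adult organ. Of the 36 lysosomal genes, 28 were lower in adult tissue and 1 was higher, and 15 of those lower were at least 2-fold lower. Over all genes tested, 12.2% were lower, 15% were higher and 2.49% were at least 2-fold lower. Of the genes called, 55.2% were higher, but 40.1% with each array centred on its median and 43.1% after a second quantile normalization. A filter on low values kept all 36 genes and 16973 genes in all, of which 3114 were lower and 3178 higher. Shares called over all genes are thus smaller than among the genes kept. The filter asks only for a signal above an array's median on 4 or more arrays, so the genes kept are not matched in signal to the 36. The median difference was -0.80 for the 36 genes and 0.08 for all genes. Their mean signal per array was 8.81, 8.90, 8.87 and 8.75 in P0 tissue and 7.67, 7.80, 7.79 and 7.78 in adult tissue, without overlap. Without P0 replicates 2 and 3, 24 genes were lower, and Arsa, Arsb, Asah1 and Scarb2 missed the threshold (adjusted p = 0.094, 0.14, 0.15 and 0.13). In RNA of whole tissue, fewer cells of a type and less RNA per cell cannot be told apart.

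Among the proteases, 7 of 8 fell and 1 rose. Ctsl, the gene of the cysteine protease cathepsin L, measured 10.04, 10.31, 10.22 and 9.90 on the 4 P0 arrays and 6.35, 6.88, 6.78 and 6.83 on the adult ones. The groups lie far apart, and the difference was -3.41 ± 0.21, adjusted p = 1.6e-11, or 10.6-fold. Lgmn encodes legumain, which cuts after asparagine and processes cathepsins. It measured 11.40, 11.51, 11.46 and 11.22 at P0 and 8.65, 8.52, 8.78 and 8.74 in adults (-2.72 ± 0.20, adjusted p = 3.7e-10, 6.61-fold), and the lowest P0 array stood above the highest adult array by far more than the spread within either group. Tpp1, the gene of tripeptidyl peptidase 1, measured 9.39, 9.42, 9.42 and 9.34 at P0. The adult arrays gave 7.41, 7.52, 7.58 and 7.51, again without overlap (-1.89 ± 0.15, adjusted p = 1.3e-09, 3.7-fold). Ctsa, whose product also shields the sialidase Neu1, fell by 1.66 (adjusted p = 1.6e-09). Ctsh, Ctsb and Ctsz, which encode further cathepsins, fell by 1.07, 0.95 and 0.92.

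The exception was Ctsc. This gene encodes cathepsin C, also called dipeptidyl peptidase 1, which activates serine proteases of immune cell granules. It measured 7.18, 7.20, 7.25 and 7.15 at P0 and 8.12, 7.91, 7.83 and 7.76 in adult tissue, higher in each adult array than in any P0 array (0.71 ± 0.13, adjusted p = 0.00013, 1.64-fold).

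Of the glycosidases, 8 of 10 fell and none rose. Gusb, the gene of beta-glucuronidase, measured 9.12, 9.24, 9.21 and 9.03 at P0 and 6.75, 6.65, 6.60 and 6.63 in adults (-2.49 ± 0.14, adjusted p = 3.4e-12, 5.62-fold). Neu1, the lysosomal sialidase that removes terminal sialic acid, measured 9.32, 9.28, 9.20 and 8.97 at P0 and 7.26, 6.83, 6.96 and 6.94 in adults (-2.19 ± 0.16, adjusted p = 1.7e-10, 4.57-fold). Hexa, the alpha subunit of beta-hexosaminidase, measured 10.53, 10.58, 10.58 and 10.41 at P0 and 8.79, 8.81, 8.82 and 8.95 in adults (-1.68 ± 0.15, adjusted p = 9.7e-09, 3.21-fold). For these 3 genes each P0 array was above every adult array by over 1 log2 unit. Gaa, acid alpha-glucosidase of glycogen breakdown, and Gla fell by 1.44 and 1.25. Man2b1, Manba and Fuca1, which remove mannose and fucose, fell by 1.12, 0.82 and 0.78. Naglu and Idua, which act on heparan and dermatan sulfate, did not pass (differences of -0.28 and 0.15, adjusted p = 0.27 and 0.33), and their groups overlapped.

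Among the sulfatases, 3 of 5 fell. Galns, which acts on keratan sulfate and chondroitin sulfate, measured 8.97, 9.21, 9.14 and 8.80 at P0 and 7.57, 7.60, 7.67 and 7.58 in adults (-1.43 ± 0.13, adjusted p = 8.1e-09). Arsa, the arylsulfatase that acts on sulfatide, fell by 0.49 (adjusted p = 0.01). Arsb, the arylsulfatase of dermatan sulfate, measured 7.09, 7.28, 7.23 and 7.0 at P0 and 6.77, 6.80, 6.78 and 6.76 in adults (-0.37 ± 0.10, adjusted p = 0.0052). Arsb has 2 probe sets, and their mean gave -0.09 (adjusted p = 0.34), so its call rests on the probe set taken. Ids and Sgsh, which remove sulfate from heparan sulfate, differed by -0.24 and -0.02 (adjusted p = 0.18 and 0.91) and did not pass.

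Lipid genes were divided. Lipa, the lysosomal acid lipase that frees cholesterol and fatty acids from lipoprotein esters, measured 10.72, 10.68, 10.73 and 10.68 at P0 and 7.72, 9.04, 8.66 and 9.07 in adults, where replicate 1 was lowest (-2.08 ± 0.30, adjusted p = 1.2e-05, 4.22-fold). Smpd1, acid sphingomyelinase, and Asah1, acid ceramidase, fell by 0.62 and 0.35. Asah1 no longer passed when P0 replicate 2 or 3, or replicate 2 or 4 of adult tissue, was left out (adjusted p up to 0.097). Psap, the precursor of the saposins that activate sphingolipid hydrolases, differed by -0.25 (adjusted p = 0.069), and Ppt1, a thioesterase that removes palmitate from proteins, by 0.06 (adjusted p = 0.68). Of the pair that exports cholesterol, Npc2 fell by 0.72 (adjusted p = 7.9e-08). Npc1, its membrane partner, measured 7.15, 7.28, 7.12 and 7.16 at P0 and 7.52, 6.87, 7.10 and 7.12 in adults, which overlap (-0.02 ± 0.11, adjusted p = 0.88).

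All 4 membrane proteins and both channels fell. Lamp1, Scarb2, which carries beta-glucocerebrosidase to the lysosome, and the tetraspanin Cd63 fell by 0.79, 0.67 and 0.56. Lamp2, which has a role in autophagy, measured 10.36, 10.29, 10.39 and 10.34 at P0 and 9.65, 9.66, 9.75 and 9.80 in adults (-0.63 ± 0.08, adjusted p = 1.5e-06). Mcoln3 encodes mucolipin-3, a cation channel of endosomes known from the vacuolated enterocytes of suckling animals. It measured 9.35, 9.56, 9.17 and 9.14 at P0 and 4.03, 5.71, 5.0 and 5.70 in adults. This was the largest difference among the 36 genes (-4.20 ± 0.32, adjusted p = 6.5e-10, 18.4-fold), and adult replicate 1 lay at background level. Mcoln1 fell by 1.38 (adjusted p = 7.5e-11).

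Markers of other cells also moved between the tissues. Of 10 mesenchyme and smooth muscle markers, 9 were lower in adult tissue (mean 8.35 to 8.98 at P0 and 6.92 to 7.55 in adults). All 7 endothelial markers were lower (6.75 to 7.24 and 5.36 to 5.77). Of 13 macrophage markers, 2 were lower and 3 higher, and their mean was 6.07 to 6.23 at P0 and 6.32 to 6.69 in adults. Of 9 lymphocyte and plasma cell markers, 8 were higher. Ptprc, Cd3e, Cd3g, Cd4, Cd79a, Ms4a1 and Jchain lay below the negative control median at P0. Ms4a1, which did not pass, and Cd4, which was called higher, lay below it in adult tissue too. Of 9 epithelial markers, 8 were higher (9.83 to 9.95 and 10.46 to 10.78). Enterocyte markers averaged 11.44 to 11.50 at P0 and 11.41 to 11.68 in adults. The part of all these cells in the lysosomal differences was not tested.

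**Figure D2:**
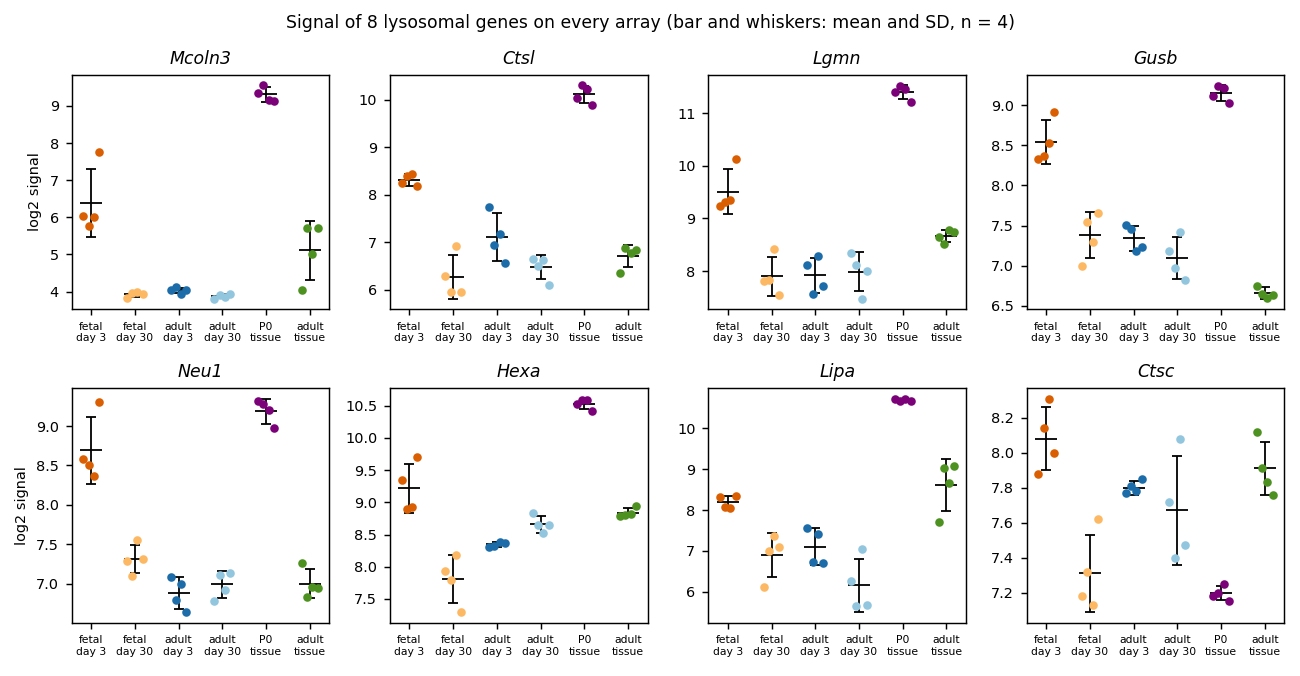
Log2 signal of 8 lysosomal genes on every array (points), with the group mean and SD (bar and whiskers, n = 4), for the 6 groups. Mcoln3, Ctsl, Lgmn, Gusb, Neu1, Hexa and Lipa were highest in P0 tissue, while Ctsc was lowest there, and fetal day 3 organoids stood above fetal day 30 organoids in each of the 8.

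The second comparison asks how fetal organoids change during culture. From day 3 to day 30, 26 of the 36 lysosomal genes fell and 0 rose in limma's test, where 27 of 36 had an unadjusted p under 0.05, and 7 fell at least 2-fold. Over all genes tested, 8.76% fell, 6.78% rose and 1.57% fell at least 2-fold. Of the genes called, 43.6% rose, and 65.5% with each array centred on its median. Of the 16973 genes kept by the filter on low values, 2322 fell and 2181 rose. The median difference was -0.48 for the lysosomal genes and -0.03 for all genes. Their mean signal was 8.09, 8.13, 8.21 and 8.42 on day 3 and 7.54, 7.54, 7.79 and 7.47 on day 30, and the lowest day 3 array stood above the highest day 30 array. Without fetal day 3 replicates 2 and 3, whose stomach gene signal was highest, 21 genes fell and 0 rose. This setting keeps replicate 1, whose stomach genes still averaged 6.93, and replicate 4, the highest day 3 array for the 36 genes at 8.42. A fit of these 2 groups alone called 17 lower.

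All 8 proteases fell. Ctsl measured 8.25, 8.39, 8.43 and 8.18 on day 3 and 6.29, 5.94, 6.92 and 5.94 on day 30, with every day 30 array over 1 log2 unit below the day 3 arrays (-2.04 ± 0.21, adjusted p = 5.2e-07, 4.12-fold). Lgmn measured 9.23, 9.31, 9.35 and 10.13 on day 3, where replicate 4 was highest, and 7.82, 7.84, 8.42 and 7.54 on day 30 (-1.60 ± 0.20, adjusted p = 7.9e-06, 3.04-fold). Tpp1 measured 8.40, 8.28, 8.42 and 9.02 and then 7.96, 7.73, 8.21 and 7.39 (-0.70 ± 0.15, adjusted p = 0.0023). Ctsc, which had been higher in adult than in P0 tissue, went the other way in culture. It measured 7.88, 8.14, 8.31 and 8.0 on day 3 and 7.18, 7.32, 7.13 and 7.62 on day 30 (-0.77 ± 0.13, adjusted p = 0.00015). Ctsh fell by 0.82, and its groups overlapped, with an adjusted p of 0.11 without day 3 replicates 2 and 3.

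Of the glycosidases, 7 of 10 fell. Hexa measured 9.34, 8.90, 8.92 and 9.70 on day 3 and 7.94, 7.80, 8.19 and 7.30 on day 30 (-1.41 ± 0.15, adjusted p = 1e-06, 2.66-fold). Neu1 measured 8.58, 8.51, 8.36 and 9.30 and 7.28, 7.10, 7.55 and 7.31 (-1.38 ± 0.16, adjusted p = 1.9e-06, 2.6-fold), and Gusb 8.33, 8.37, 8.53 and 8.92 and 7.0, 7.55, 7.30 and 7.66 (-1.16 ± 0.14, adjusted p = 4.5e-06, 2.24-fold). In each of the 3 the groups did not overlap, and replicate 4 was the highest day 3 array. Gla fell by 0.93. Manba, Fuca1 and Man2b1 fell by 0.41, 0.35 and 0.24, and each missed the threshold without day 3 replicate 4 (adjusted p = 0.054, 0.063 and 0.11). It was also missed without day 30 replicate 1 for Manba, day 30 replicate 4 for Fuca1, and day 3 replicate 3 or day 30 replicates 1, 3 or 4 for Man2b1. Gaa, which fell in tissue, differed by -0.09 (adjusted p = 0.73).

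Galns was the only sulfatase of 5 that passed. It measured 8.32, 8.12, 8.44 and 8.80 on day 3 and 7.47, 7.37, 7.58 and 7.49 on day 30 (-0.94 ± 0.13, adjusted p = 1.9e-05). Arsb measured 6.91, 7.36, 7.26 and 7.25 and 7.13, 7.32, 7.24 and 7.04, which overlap (-0.01 ± 0.10, adjusted p = 0.96). Among the lipid genes, Lipa measured 8.31, 8.08, 8.04 and 8.34 on day 3 and 6.12, 7.0, 7.37 and 7.10 on day 30, with replicate 1 lowest (-1.30 ± 0.30, adjusted p = 0.0045, 2.45-fold). Asah1 and Psap fell by 0.45 and 0.35, and without day 3 replicates 2 and 3 neither passed (differences of -0.22 and -0.17, adjusted p = 0.26 and 0.33). Npc1, which did not pass between the tissues, measured 6.58, 6.52, 6.48 and 6.47 on day 3 and 5.96, 5.79, 6.18 and 6.05 on day 30 (-0.52 ± 0.11, adjusted p = 0.0013). Npc2 differed by 0.01 (adjusted p = 0.97).

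Lamp1, Scarb2 and Cd63 fell, with differences of -0.52, -0.59 and -0.42. Lamp2 measured 9.55, 9.48, 9.58 and 9.79 on day 3 and 9.19, 9.18, 9.27 and 9.0 on day 30 (-0.44 ± 0.08, adjusted p = 0.00043). Scarb2 missed the threshold without any of 5 of the 8 arrays (adjusted p up to 0.19), and without day 3 replicates 2 and 3 it differed by -0.26 (adjusted p = 0.48). Mcoln1 fell by 0.40 (adjusted p = 0.0051). Mcoln3 measured 6.04, 5.76, 6.0 and 7.75 on day 3 and 3.83, 3.95, 3.99 and 3.92 on day 30, where its mean of 3.92 lay below the negative control median of 4.24. It was thus at least 4.44-fold lower on day 30 (adjusted p = 1.2e-05). Day 3 replicate 4, at 7.75, stood far above the other 3 arrays.

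Other markers fell in the same cultures. Of 13 macrophage markers, 10 fell and 0 rose, with a mean of 5.88 to 6.38 on day 3 and 5.17 to 5.33 on day 30. Adgre1, Cd163 and Fcgr1 were below the negative control median on day 30, and the other markers were above it. Of 10 mesenchyme and smooth muscle markers, 9 fell (5.96 to 6.75 and 4.99 to 5.31), and of 8 stomach genes, 7 fell (5.19 to 8.65 and 4.38 to 6.04). Without fetal day 3 replicates 2 and 3, 10 macrophage, 6 mesenchyme and 3 stomach genes fell. Epithelial markers averaged 10.44 to 10.63 on day 3 and 10.18 to 10.45 on day 30, with 1 of 9 higher and 1 lower. Enterocyte markers averaged 10.03 to 10.68 on day 3 and 10.01 to 10.53 on day 30. The part of these cells in the lysosomal change was not tested.

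The tissue and the fetal culture comparisons share no array. Of the lysosomal genes, 23 were lower in both, which is 82.1% of the 28 lower in adult tissue and 88.5% of the 26 that fell in culture. With fetal day 3 replicates 2 and 3 left out, 19 were lower in both, or 67.9% of 28 and 90.5% of 21. Over all genes, 1001 were lower in both, or 26.8% and 37.2% of the respective lists (681, or 18.2% and 37.6%, without those replicates). With 28 and 26 of the 36 genes called, a large overlap follows from these counts alone. Over all genes only 12.2% and 8.76% were called lower, so the 2 overlaps start from unlike shares. Arsa, Arsb, Gaa, Npc2 and Smpd1 were lower in tissue alone, and Ctsc, Npc1 and Psap in culture alone. Ids, Idua, Naglu, Ppt1 and Sgsh were lower in neither. Across the 36 genes the 2 differences had a Pearson correlation of 0.84 and a Spearman correlation of 0.71, and without Mcoln3 and Ctsl these were 0.71 and 0.66 over 34 genes. Over all 30712 genes they were 0.27 and 0.03. Only 16973 of these genes passed the filter on low values, as all 36 genes did, and no correlation was computed over the genes kept. Genes are not independent replicates, and these correlations describe the same 16 arrays. For the 23 shared genes the fall in culture was a median of 62.9% of the tissue difference on the log2 scale, from 21.6% for Man2b1 to 126% for Asah1. Only genes called lower in both enter this median, so a fall in culture is built into it. The 5 genes lower in tissue alone are left out. For Mcoln3 the share of 58.7% rests on a day 30 mean below the negative control median, so it has no firm size.

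**Figure D3:**
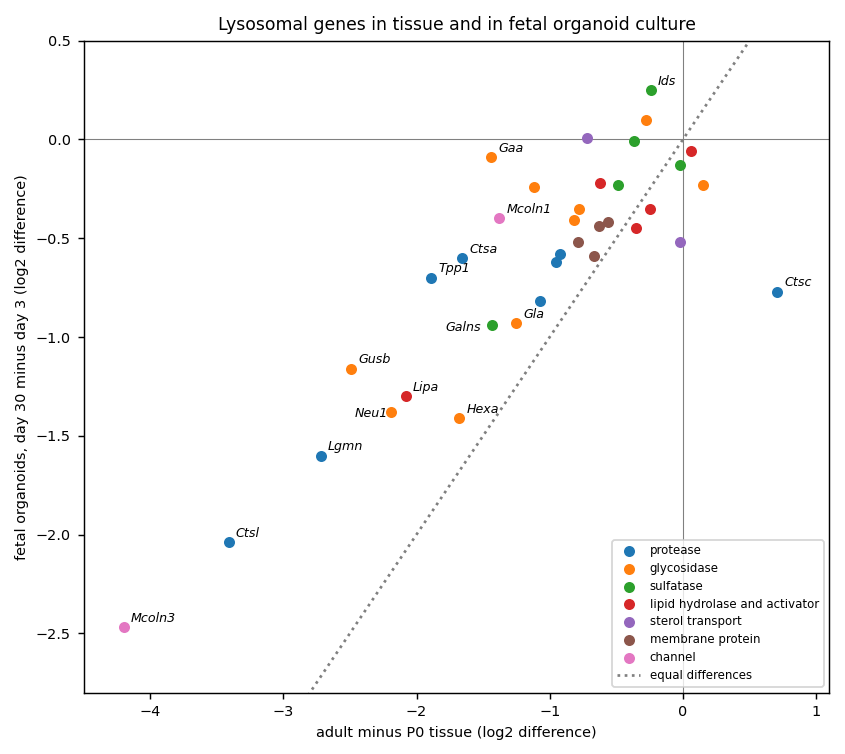
Log2 difference of each of the 36 lysosomal genes in fetal organoid culture (day 30 minus day 3) against that in tissue (adult minus P0), coloured by role, with a dotted line where both are equal. Mcoln3, Ctsl and Lgmn lie lowest on both axes, 29 of 36 genes lie above the line, and Ctsc is apart, higher in adult tissue and lower on day 30.

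The same culture interval was then examined in adult organoids. In limma's test 0 of the 36 genes rose and 0 fell, and 5 of 36 had an unadjusted p under 0.05. Over all genes, 0.026% rose and 0.0228% fell, which is 8 and 7 genes. These counts moved with single arrays and weights: without adult day 30 replicate 3 they were 114 and 90, without adult day 3 replicate 2 they were 15 and 21, without any other array of the 2 groups they were 0 to 4 and 3 to 5, and with array weights 203 and 169. Leaving out any single array called 0 of the 36 genes, and 1 fell with array weights. Of the 15 genes called with all arrays 53.3% rose, against 33.3% of those called with each array centred on its median and 0% after a second quantile normalization. The median difference was -0.05, and the mean signal of the 36 genes was 7.73, 7.61, 7.66 and 7.61 on day 3 and 7.69, 7.59, 7.60 and 7.57 on day 30. Of 10 mesenchyme and smooth muscle markers 0 passed, with 1 at an unadjusted p under 0.05, and replicate 1 on day 3 was high in them. Lipa and Ctsl had the largest differences. Lipa measured 7.56, 6.73, 7.41 and 6.70 on day 3 and 6.26, 5.66, 7.04 and 5.69 on day 30, which overlap (-0.94 ± 0.30, adjusted p = 0.34). Ctsl measured 7.75, 6.93, 7.18 and 6.57 and 6.65, 6.5, 6.62 and 6.10, also overlapping (-0.64 ± 0.21, adjusted p = 0.35).

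None of the genes that fell in fetal organoids passed here. Lgmn measured 8.11, 7.57, 8.28 and 7.71 on day 3 and 8.35, 8.11, 7.48 and 8.01 on day 30 (0.07 ± 0.20, adjusted p = 0.99). Gusb measured 7.51, 7.46, 7.18 and 7.23 and 7.18, 6.97, 7.42 and 6.82 (-0.25 ± 0.14, adjusted p = 0.7), and Neu1 7.08, 6.79, 6.99 and 6.64 and 6.78, 7.11, 6.92 and 7.13 (0.11 ± 0.16, adjusted p = 0.97). Tpp1 measured 7.83, 7.86, 7.93 and 8.04 and 8.15, 8.14, 7.60 and 8.05 (0.07 ± 0.15, adjusted p = 0.98). Hexa measured 8.30, 8.32, 8.39 and 8.37 on day 3 and 8.83, 8.65, 8.52 and 8.65 on day 30, higher on each day 30 array but not past the threshold (0.32 ± 0.15, adjusted p = 0.6). Galns measured 7.23, 6.99, 7.08 and 6.77 and 7.58, 7.18, 7.22 and 7.04 (0.24 ± 0.13, adjusted p = 0.67), and Ctsc 7.77, 7.81, 7.78 and 7.85 and 7.72, 7.40, 8.08 and 7.47 (-0.14 ± 0.13, adjusted p = 0.9). Mcoln3 lay at background on both days, with 4.03, 4.12, 3.94 and 4.03 on day 3 and 3.81, 3.91, 3.86 and 3.94 on day 30, so no fold is given. Npc1 measured 6.67, 6.49, 6.45 and 6.54 and 6.40, 6.57, 6.35 and 6.62, Arsb 7.40, 7.71, 7.40 and 7.43 and 7.72, 7.46, 7.57 and 7.47, and Lamp2 9.51, 9.31, 9.33 and 9.32 and 9.45, 9.24, 9.52 and 9.43. The differences of these 3 genes were between -0.05 and 0.08 (adjusted p from 0.95 to 0.98).

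Whether the 2 kinds of organoid changed differently was tested as the fetal change minus the adult change. This difference was below 0 and passed for 11 of the 36 genes, and 0 passed above 0, where 20 of 36 had an unadjusted p under 0.05. Over all genes 1.97% passed below 0 and 1.02% above, so 34% of those called were above 0, and 45% with each array centred on its median. The 11 were the proteases Lgmn (-1.67 ± 0.29, adjusted p = 0.0013), Ctsl (-1.40 ± 0.30, adjusted p = 0.0082) and Ctsb (-0.52), the glycosidases Hexa (-1.72 ± 0.22, adjusted p = 5.1e-05), Neu1 (-1.49) and Gusb (-0.92), the sulfatase Galns (-1.18), the lipid genes Asah1 (-0.61) and Psap (-0.53), Lamp2 (-0.48) and the channel Mcoln3 (adjusted p = 0.0045). For Mcoln3, the means of 3 of the 4 groups lay below the negative control median, so its fitted value gives no size, and only its fall in fetal organoids has a bound (at least 4.44-fold). Asah1 and Psap each missed the threshold when any of 12 of the 16 arrays was left out (adjusted p up to 0.1). Lipa, which fell in fetal organoids, had a difference of -0.36 between the changes (adjusted p = 0.81). A fit of the organoid groups alone, and arrays centred on their median, each left 7 genes. Ctsl gave -1.31 (adjusted p = 0.057) without fetal day 3 replicates 2 and 3, where 11 genes passed, and Asah1 and Psap were lost there too (adjusted p = 0.29 and 0.28). In the same test 7 of 13 macrophage markers, 3 of 10 mesenchyme and smooth muscle markers and 5 of 6 neonatal uptake genes passed below 0, and 4, 1 and 4 did without those replicates. The part of those cells was not tested.

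The origin of the organoids was compared at each day. On day 3, 23 of the 36 genes were lower in adult than in fetal organoids and 2 were higher, against 10.1% and 14.5% of all genes (58.9% of those called were higher, and 49.8% after a second quantile normalization), with a median difference of -0.45 for the lysosomal genes and -0.01 for all genes. Neu1 (-1.81 ± 0.16, adjusted p = 3e-08, 3.5-fold), Lgmn (-1.59 ± 0.20, adjusted p = 5.7e-06, 3.01-fold), Galns (-1.40 ± 0.13, adjusted p = 6.6e-08, 2.64-fold) and Mcoln3 (at least 4.89-fold, adjusted p = 1.3e-05) were lowest relative to fetal organoids, and none of their groups overlapped. Ctsl, Gusb, Lipa and Hexa were lower by 1.21, 1.20, 1.09 and 0.87. The 2 genes that were higher in adult organoids were Ppt1 (0.36 ± 0.11, adjusted p = 0.014) and Arsb (0.29 ± 0.10, adjusted p = 0.031), and neither passed after a second quantile normalization. Arsa, Ctsz, Gaa, Lamp2, Man2b1, Manba and Mcoln1 were no longer called without fetal day 3 replicate 4, where 16 genes were lower. Without replicates 2 and 3, 23 were. Arsb missed the threshold without fetal day 3 replicate 1 or adult day 3 replicate 2, and Ppt1 without fetal day 3 replicate 2 (adjusted p = 0.055). With the mean of all probe sets only 1 gene was higher, and of these 2 genes only Arsb has 2 probe sets. Macrophage markers averaged 5.36 to 5.56 in adult day 3 organoids, below the fetal 5.88 to 6.38, with 10 of 13 lower and 1 higher, and stomach genes averaged 4.80 to 5.23, with 6 of 8 lower and 1 higher. Of 10 mesenchyme and smooth muscle markers 8 were lower (5.14 to 6.15 in adult and 5.96 to 6.75 in fetal organoids), and of 7 endothelial markers 5 were lower. Without fetal day 3 replicates 2 and 3, 10 macrophage, 3 mesenchyme, 4 endothelial and 4 stomach genes were lower. Their part was not tested.

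On day 30, 0 of the 36 genes were lower in adult organoids and 4 were higher, with 10 of 36 at an unadjusted p under 0.05, against 2.17% and 6.8% of all genes. Of all genes called, 75.8% were higher, and 52.3% after a second quantile normalization, where 3 lysosomal genes were higher and 3 lower. The median difference was 0.03. Hexa was the clearest, higher on each adult array than on any fetal array (0.85 ± 0.15, adjusted p = 0.00095, 1.81-fold). Npc1 (0.49 ± 0.11, adjusted p = 0.0042) and Arsb (0.38 ± 0.10, adjusted p = 0.015) did not overlap either, while Lamp2 (0.25 ± 0.08, adjusted p = 0.049) did. Arsb missed the threshold without adult day 30 replicate 1 (adjusted p = 0.068) and with the mean of its 2 probe sets (difference of 0.19, adjusted p = 0.078). Lamp2 missed it without any of 6 of the 8 arrays (adjusted p up to 0.15). Mcoln3 lay at background in both groups. Mean signals of the 36 genes were 7.47 to 7.79 in fetal and 7.57 to 7.69 in adult day 30 organoids.

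**Figure D4:**
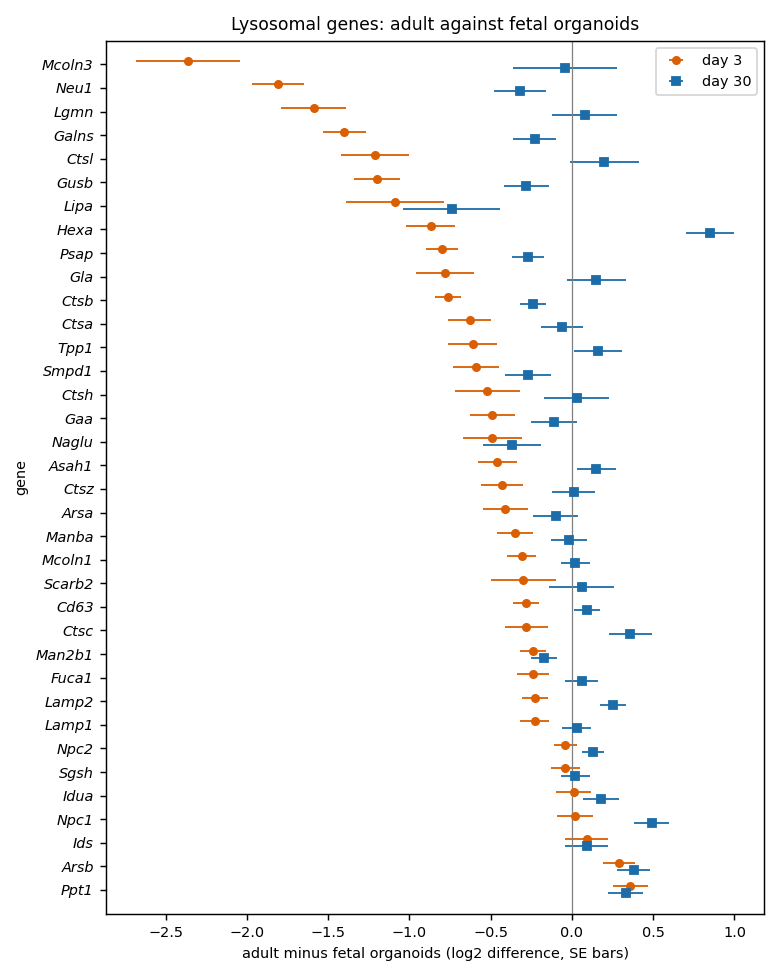
Log2 difference (adult minus fetal organoids, point) and SE (bar) of each of the 36 lysosomal genes on day 3 and day 30 of culture, ordered by the day 3 value. On day 3 most genes lie left of 0, down to Mcoln3, and on day 30 most lie near 0, with Hexa highest at 0.85.

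Organoids on day 3 were also set against uncultured intestine. Fetal day 3 organoids and P0 tissue differ in age as well as culture. Of the 36 genes, 23 were lower in the organoids and 3 higher, against 13.8% and 30.5% of all genes (68.9% of those called were higher, 54.3% with each array centred on its median and 53.3% after a second quantile normalization), with medians of -0.61 and 0.14. Mcoln3 (-2.92 ± 0.32, adjusted p = 2.7e-07, 7.56-fold), Lipa (-2.51 ± 0.30, adjusted p = 8.8e-07, 5.68-fold), Lgmn (-1.89 ± 0.20, adjusted p = 1.8e-07) and Ctsl (-1.81 ± 0.21, adjusted p = 5.4e-07) were lowest, and their groups did not overlap. Higher in the organoids were Ctsc (0.88 ± 0.13, adjusted p = 7.3e-06), Asah1 (0.43 ± 0.12, adjusted p = 0.0053) and Sgsh (0.35 ± 0.09, adjusted p = 0.0028). Asah1 gave 0.20 (adjusted p = 0.20) without fetal day 3 replicates 2 and 3. Without those replicates 22 genes were lower and 2 higher, and Gaa was also lost (adjusted p = 0.11). Without P0 replicates 2 and 3, 20 were lower. Neu1 (-0.50 ± 0.16, adjusted p = 0.013) gave -0.25 (adjusted p = 0.25) without fetal replicates 2 and 3. All 10 mesenchyme and smooth muscle markers and all 7 endothelial markers were lower in the organoids, all 8 stomach genes were higher, and of 13 macrophage markers 3 were lower and 3 higher. Enterocyte markers averaged 10.03 to 10.68 in the organoids and 11.44 to 11.50 in P0 tissue, with 7 of 8 lower. Their part was not tested.

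Adult day 3 organoids and adult tissue differed in both directions. Of the 36 genes, 14 were lower in the organoids and 11 higher, against 13.5% and 21.9% of all genes (61.9% of those called were higher, and 53.9% after a second quantile normalization, where 19 of the 36 genes were lower and 5 higher), with medians of -0.14 and 0.02. Lipa (-1.52 ± 0.30, adjusted p = 0.00028), Psap (-0.76 ± 0.10, adjusted p = 1.7e-06), Lgmn (-0.75 ± 0.20, adjusted p = 0.0049) and Npc1 (-0.61 ± 0.11, adjusted p = 4.8e-05) were lower, and Mcoln3 was at least 2.01-fold lower. Ctsh (0.72 ± 0.20, adjusted p = 0.0053), Arsb (0.71 ± 0.10, adjusted p = 2.6e-06), Gusb (0.69 ± 0.14, adjusted p = 0.00039) and Npc2 (0.57 ± 0.07, adjusted p = 1.4e-06) were higher. Of the 25 calls, 9 were lost when some single array was left out, those of Asah1, Gaa, Gla, Ids, Idua, Manba, Mcoln3, Smpd1 and Tpp1. Macrophage markers were lower in the organoids for 12 of 13 genes (5.36 to 5.56 and 6.32 to 6.69), and all 10 mesenchyme and smooth muscle markers and all 7 endothelial markers were lower. Of 8 enterocyte markers 6 were lower (10.30 to 10.80 in organoids and 11.41 to 11.68 in tissue). Their part was not tested.

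Related genes were followed in lists that were chosen with earlier results of these data known. The vacuolar ATPase pumps protons into the lysosome. Of its 16 measured subunit and accessory genes, 12 were lower and 1 higher in adult than in P0 tissue, and 13 fell and 0 rose in fetal culture, 9 and 0 without day 3 replicates 2 and 3. For this list and those that follow, the shares over all genes are 12.2% lower and 15% higher in tissue, and 8.76% falling and 6.78% rising in fetal culture. In tissue, Atp6v1b2 (-1.34 ± 0.11, adjusted p = 3.7e-09), Atp6v1h (-1.07 ± 0.11, adjusted p = 1.1e-07) and Atp6v1e1 (-0.98) fell most, and Atp6v0a2 rose (0.57 ± 0.14, adjusted p = 0.0034). In fetal culture, Atp6v0b (-0.83 ± 0.12, adjusted p = 3.9e-05) and Atp6v0a1 (-0.74 ± 0.13, adjusted p = 0.00038) fell most. In adult culture 0 of the 16 passed in limma's test, and 1 had an unadjusted p under 0.05, where 0.026% of all genes rose and 0.0228% fell. Their mean signal was 8.01 to 8.39 in fetal day 3 and 7.64 to 7.81 in fetal day 30 organoids.

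Of 21 other lysosomal hydrolases and cofactors, 11 were lower and 3 higher in adult tissue, while in fetal culture 6 fell and 2 rose, with the same counts without day 3 replicates 2 and 3. Galc, which encodes galactosylceramidase (-1.95 ± 0.15, adjusted p = 9.3e-10), Scpep1 (-1.67 ± 0.21, adjusted p = 1.1e-06) and Dpp7 (-1.52 ± 0.14, adjusted p = 7.5e-09) fell most in tissue, against Gm2a, the GM2 activator (0.57 ± 0.13, adjusted p = 0.0017). In culture Smpdl3a (-1.82 ± 0.24, adjusted p = 1.1e-05) and Ctss, cathepsin S of antigen-presenting cells (-1.07 ± 0.17, adjusted p = 8.5e-05), fell most, and Arsk rose (0.80 ± 0.20, adjusted p = 0.0081). Of 23 other lysosomal membrane proteins, 12 were lower and 2 higher in adult tissue, and 8 fell and 0 rose in fetal culture (7 and 0 without those replicates). Slc17a5, the sialic acid exporter sialin, fell most in both (-2.99 ± 0.19, adjusted p = 2.6e-11 in tissue, -0.97 ± 0.19, adjusted p = 0.00097 in culture). Ctns, the cystine exporter, fell in tissue (-1.45 ± 0.18, adjusted p = 9.4e-07), and Tpcn1, an endolysosomal cation channel, fell in culture (-0.87 ± 0.14, adjusted p = 9.8e-05). Slc36a1, a proton-coupled amino acid transporter, rose in adult tissue (1.16 ± 0.19, adjusted p = 5.6e-05).

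Of 16 genes of MiT/TFE factors and their Rag GTPase regulators, 9 were lower and 2 higher in adult tissue, and 7 fell and 0 rose in fetal culture, 6 and 0 without day 3 replicates 2 and 3. Tfec, a member of the MiT/TFE family, measured 8.64, 8.85, 9.16 and 8.35 at P0 and 3.86, 3.82, 3.77 and 3.97 in adult tissue. It measured 8.20, 8.10, 8.19 and 8.98 in fetal day 3 organoids and 4.19, 3.54, 4.14 and 3.88 on day 30. Its low groups lay below background, so it was at least 20.4-fold lower in adult tissue (adjusted p = 5.3e-16) and at least 17.5-fold lower on day 30 (adjusted p = 8.8e-14). The other family members, named here after their values were seen, differed less. Tfeb gave -0.11 in tissue and -0.16 in culture (adjusted p = 0.25 and 0.13), and Tfe3 gave 0.07 and -0.24 (adjusted p = 0.44 and 0.015). Mitf measured 3.77 to 4.39 over all 24 arrays, close to the negative control medians. Fnip2, a partner of folliculin, fell in both (-1.11 ± 0.10, adjusted p = 8.2e-09 and -0.56 ± 0.10, adjusted p = 4e-04).

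Genes of neonatal protein uptake move milk proteins and IgG from the gut lumen into the enterocyte. Of 6 genes, 5 were lower in adult tissue and all 6 fell in fetal culture, also without day 3 replicates 2 and 3, while in adult culture 0 passed in limma's test and 0 had an unadjusted p under 0.05. Dab2, an endocytic adaptor, fell in both (-3.81 ± 0.22, adjusted p = 4.8e-12 in tissue, -2.22 ± 0.22, adjusted p = 2.9e-07 in culture), as did Fcgrt, the neonatal IgG receptor (-3.25 ± 0.26, adjusted p = 1.3e-09 and -1.81 ± 0.26, adjusted p = 3.8e-05). Cubn, which encodes the receptor cubilin, fell in culture (-1.33 ± 0.28, adjusted p = 0.0021). Their mean signal was 9.23, 9.09, 9.03 and 9.04 at P0, 6.94 to 7.77 in fetal day 3 organoids and 5.81 to 6.13 on day 30.

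**Figure D5:**
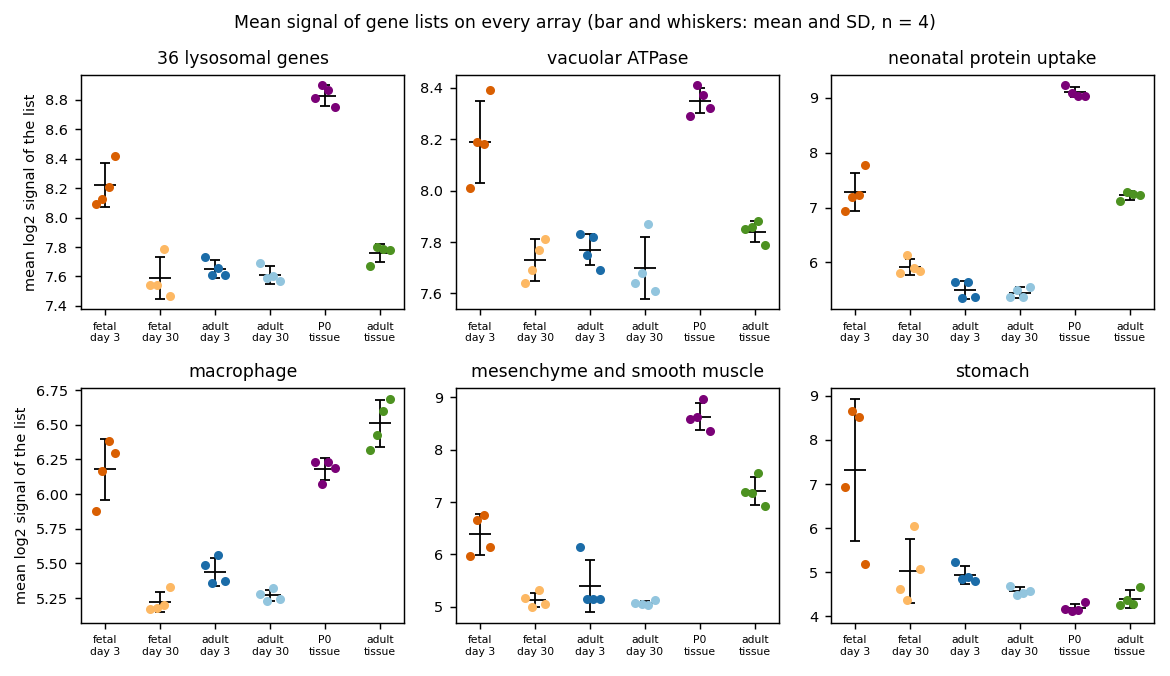
Mean log2 signal of 6 gene lists on every array (points), with the group mean and SD (bar and whiskers, n = 4). The 36 lysosomal genes, the vacuolar ATPase and neonatal protein uptake genes are highest in P0 tissue and higher on day 3 than on day 30 in fetal organoids, as macrophage, mesenchyme and stomach genes also are between those 2 days on average.

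The promoter letters were set beside the changes as a description. The 9 genes with TCACGTG had a median difference of -1.25 in tissue, with 7 lower, and the 22 with a window but without it had -0.75, with 17 lower. In fetal culture the medians were -0.40 and -0.43, with 5 and 16 lower. Ctsl and Mcoln3, the genes with the largest differences in tissue, have no TCACGTG in their windows, although Ctsl holds CACGTG between 236 and 231 bases before an annotated start. That start lies inside the gene, and the match is downstream of the gene's outermost 5′ end (position 64370772).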

How the data were processed

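Per the submitters' processing notes, the deposited log2 values were made by the authors with RMA in Affymetrix Expression Console, which corrects background, normalizes quantiles and summarizes probes; no version or genome build is given in the sources used here. Total RNA (1 µg) was biotin labelled for each array, per the labels' protocols. The table holds 72688 probe sets, of which 31269 name 1 gene after 1786 symbols were updated through RefSeq; 442 genes had several. The remaining 30712 genes were fitted in limma 3.58.1 (R 4.3.3) with 6 group means on all 24 arrays and an empirical Bayes prior. The 8 comparisons were adjusted over all genes, and calls are at an adjusted p under 0.05. Python 3.11.15, pandas 2.3.3, numpy 2.4.6 and matplotlib 3.10.9 were used for summaries and figures.

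The 36 genes and all gene lists were chosen with earlier results of these data known, so no count over them is independent evidence. Every one of the 36 genes may be named. Values per array are given for the 8 called genes with the largest difference in the tissue and fetal culture comparisons, those called against the majority there, and the 4 largest called in the culture interaction and in each adult-minus-fetal comparison. Other lists are named by up to 3 called genes with the largest difference in the first 2 comparisons and up to 2 against the majority. Alternatives were the mean of all probe sets, a filter that kept 16973 genes (above an array's median on 4 or more arrays), a trended robust prior, a fit of only the groups compared, centring each array on its median, repeating quantile normalization over the arrays, the replicate number as a block, array weights, a threshold of 0.01, and leaving out each array. Pairs of arrays were also left out: fetal day 3 replicates 2 and 3, P0 replicates 2 and 3, and P0 replicates 1 and 4. The overlap and the counts of other lists without fetal day 3 replicates 2 and 3 were added after seeing the data. With 4 arrays a group, the number of arrays limits precision.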

Additional observations from a re-analysis of the deposited data

Results flagged for a closer look

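In 12 of 216 gene and group combinations (5.56%) 1 array stood apart from the other 3 by Dixon's test at its 95% critical value, where chance alone gives about 1 in 20. In fetal day 3 organoids, Mcoln3 was 7.75 on replicate 4 against 5.76 to 6.04 on the others, Lgmn 10.13 against 9.23 to 9.35 and Arsa 6.95 against 6.53 to 6.54, both also on replicate 4. On replicate 1 of that group Ctsh was 8.98 against 9.58 to 9.69 and Naglu 6.47 against 7.19 to 7.27, and on replicate 2 Sgsh was 6.55 against 6.81 to 6.85. In adult tissue replicate 1, Ctsa was 8.29 against 8.56 to 8.61, Ctsz 9.38 against 9.73 to 9.78 and Lamp1 9.86 against 10.1 to 10.12. In adult tissue replicate 4, Ids was 6.79 against 7.26 to 7.33. In adult day 3 organoids, Arsb was 7.71 on replicate 2 against 7.4 to 7.43, and Lamp2 was 9.51 on replicate 1 against 9.31 to 9.33.

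For 11 genes the change from day 3 to day 30 differed between fetal and adult organoids in limma's test of the difference (fetal change minus adult change, adjusted over all genes). The fitted value was -2.32 for Mcoln3, which gives no size because the means of 3 of its 4 groups lay below the negative control median. The other values were -1.72 for Hexa, -1.67 for Lgmn, -1.49 for Neu1, -1.4 for Ctsl, -1.18 for Galns, -0.92 for Gusb, -0.61 for Asah1, -0.53 for Psap, -0.52 for Ctsb and -0.48 for Lamp2. Adjusted p-values ran from 5.1e-05 for Hexa to 0.042 for Asah1. The fetal day 3 arrays, on which Mcoln3 and Lgmn had a high replicate 4, enter this difference. Without any single array 9 to 14 genes passed, and without fetal day 3 replicates 2 and 3, 11 passed, with Ctsl, Asah1 and Psap lost (adjusted p = 0.057, 0.29 and 0.28).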

How the results depend on the processing

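Of 2768 values of the 146 called gene results under the alternatives, 2534 kept direction and call, 233 kept direction only and 1 reversed: Cd63 in adult day 3 organoids against adult tissue gave -0.03 after a second quantile normalization (adjusted p = 0.84, 0.33 as reported). Fitting only the groups compared left 17 genes lower in fetal culture and 7 in the culture interaction, and 1 higher on day 3 between the origins. Centring arrays left 7 in the interaction and 2 higher on day 30. The second quantile normalization gave 0 higher on day 3, 3 lower on day 30, and 5 higher in adult organoids against tissue. Array weights gave 1 lower in adult culture, 1 higher on day 3 and 2 lower on day 30, and the mean of all probe sets gave 1 higher on day 3. The threshold of 0.01 left 6 in the interaction, 0 higher on day 3, 2 higher on day 30, and 7 higher and 8 lower in adult organoids against tissue. Leaving out each array gave 1 to 2 higher on day 3, 2 to 5 higher and 0 to 1 lower on day 30, 27 to 28 lower in adult tissue, 22 to 26 lower in fetal culture, 9 to 14 in the interaction and 16 to 26 lower on day 3. Without fetal day 3 replicates 2 and 3, 1 gene was higher on day 3. Of the 55 calls that use P0 arrays, 48 were kept without P0 replicates 2 and 3, and 53 without P0 replicates 1 and 4. The pairs of arrays were chosen with the data known. The cause of these differences was not tested.

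Deviations of same-numbered arrays from their group means correlated from -0.31 to 0.3, over 0.1 in 8 of 60 pairs. Between fetal day 3 and day 30 organoids they correlated at 0.25, -0.06, 0.16 and 0.04 for replicates 1 to 4. Such values cannot tell whether same-numbered arrays share an animal or a culture, which the labels do not give. With the replicate block 28 genes were lower in adult tissue, 26 in fetal culture and 9 in the interaction, and 4 were higher on day 30. Genes near the negative control medians, Mcoln3 in organoids among them, have only a bound.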

Other observations

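Genes that sort and activate lysosomal enzymes were divided. Of 12, 4 were lower and 2 higher in adult than in P0 tissue, against 12.2% and 15% of all genes, and 4 fell and 3 rose in fetal culture, against 8.76% and 6.78% of all genes. Without fetal day 3 replicates 2 and 3, 3 fell and 2 rose. Gga2, an adaptor that carries hydrolases from the Golgi, was lower in adult tissue (-2.66 ± 0.16, adjusted p = 1.4e-11) and fell in culture (-0.48 ± 0.16, adjusted p = 0.049). Igf2r, the large mannose 6-phosphate receptor, fell in both (-1.08 ± 0.10, adjusted p = 7.7e-09 and -0.48 ± 0.10, adjusted p = 0.0012), and Sort1, the receptor sortilin, rose in both (1.41 ± 0.13, adjusted p = 1.4e-08 and 0.67 ± 0.13, adjusted p = 9e-04).

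Of 20 autophagy genes, 6 were lower and 4 higher in adult tissue, and 6 fell and 3 rose in fetal culture, with medians of -0.07 and 0.04. The shares over all genes were 12.2% lower and 15% higher in tissue, and 8.76% falling and 6.78% rising in culture. Without fetal day 3 replicates 2 and 3, 4 fell and 2 rose. Uvrag was lower in adult tissue (-0.77 ± 0.09, adjusted p = 8.1e-07). Wipi1, which binds phosphoinositides on forming autophagosomes, was lower in adult tissue (-0.72 ± 0.12, adjusted p = 8.7e-05) and rose in fetal culture (0.51 ± 0.12, adjusted p = 0.0056). In culture Atg14 rose (0.62 ± 0.18, adjusted p = 0.018) and Sqstm1, the cargo receptor p62, fell (-0.58 ± 0.13, adjusted p = 0.0029). In adult organoid culture 0 genes of these 2 lists passed in limma's test, and 2 sorting genes and 1 autophagy gene had an unadjusted p under 0.05.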
